A study of Mus musculus with 10 samples.

Results

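The step from the hemangioblast (HB) to the CD41+ hemogenic endothelium (HE2) was examined in the 2 HB and 2 HE2 libraries of a mouse embryonic stem cell differentiation series, 4 of 10 libraries in all. The libraries were chosen by their stage labels alone. Nuclear RNA was depleted of ribosomal RNA and sequenced with strand information at 5 stages of blood formation in serum cultures of HM-1 cells, a mouse embryonic stem cell line: embryonic stem cells (ES), HB, the CD41- hemogenic endothelium (HE1), HE2 and hematopoietic progenitors (HP). No stage carried a gene deletion or a drug treatment. HB cells were FLK1+ mesoderm, taken with magnetic beads from embryoid bodies grown for 3 days without leukemia inhibitory factor. HE2 cells came from FLK1+ cells that were cultured for a further 2.50 days with VEGF, IL-6 and medium conditioned by D4T endothelial cells, and were sorted by flow cytometry as KIT+ TIE2+ CD41+. The same blast culture gave HE1 (KIT+ TIE2+ CD41-) and HP (TIE2- CD41+), so stage, culture time, culture medium and sort change together between HB and HE2 and cannot be told apart. Genes were counted on the authors' exon models of the mm10 genome, and levels are given as CPM, a gene's share of the counts in its library in parts per 1e6, after scaling by the trimmed mean of M-values (TMM). The question was which gene programs separate FLK1+ mesoderm from HE2, and which mesoderm genes HE2 cells still expressed. Many of the genes named below were picked from lists of known genes after their values were seen.

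FLK1, the VEGF receptor encoded by Kdr, marks the mesoderm from which the first blood and endothelial cells of the embryo arise. In that mesoderm the ETS factor ETV2 switches on the shared program of blood and endothelium, in which TAL1, LMO2, GATA2, FLI1 and ERG act together. Hemogenic endothelium is flat endothelium that turns into round blood cells under RUNX1 and its targets GFI1 and GFI1B, which silence endothelial genes, and CD41, the integrin subunit encoded by Itga2b, is among the earliest surface marks of that commitment.

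Depth was similar in the 4 libraries, with 29055246 and 36045700 counts in HB and 33109887 and 32917684 counts in HE2. At these depths 3 counts in a library correspond to 0.0845 to 0.0992 CPM, and this level was used as the floor for genes without a count in a stage. The authors describe the libraries of a stage as biologically independent, while the labels name no separate cultures or sorts. The p-values rest on a spread estimated over all 10 libraries of the 5 stages, with 5 residual degrees of freedom, and not on the HB and HE2 pairs alone. Libraries of a stage differed by more than counting noise, with a chi-square per degree of freedom of 26.2 in HB and 60.8 in HE2. It was 2.99 in ES, 44.5 in HE1 and 42.8 in HP, so the HE2 pair was the most variable of the stages that share the estimate.

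The HE2 libraries stood further apart from each other than the HB libraries did. Among genes with a stage mean of at least 9 CPM, 30 of 10235 differed by more than 2-fold between the HB libraries (0.293%), against 398 of 10236 between the HE2 libraries (3.89%). HE2 replicate 1 was the higher library for 366 of the latter genes and HE2 replicate 2 for 32. The summed level of 24 endothelial genes was 4633 CPM in HE2 replicate 1 and 2635 CPM in HE2 replicate 2, against 6513 and 4638 CPM in HE1 and 1498 and 1506 CPM in HP. The summed level of 22 hematopoietic transcription factors was 1699 and 2591 CPM in the same libraries. For the erythroid genes described below the sum was lower in HE2 replicate 2 (2659 and 2065 CPM), and for the myeloid genes it was level (835 and 855 CPM). HE2 replicate 2 therefore had less endothelial RNA and more RNA of blood transcription factors than HE2 replicate 1 and in both lay nearer to HP, and fewer cells of a type in the sort and less RNA per cell cannot be told apart. The noncoding RNAs Malat1 (6029 and 2699 CPM) and Neat1 (60.2 and 26.9 CPM) were lower in HE2 replicate 2 as well, and the cause was not tested. In HP they were at 4004 and 5779 CPM and at 53.1 and 69.3 CPM. Each library was left out in turn, and most lost calls and values that moved by more than 1.5-fold are given beside the results. Log2 fold changes of genes with 4 or fewer counts in a stage rest on single counts, moved by more than that as well, and are not all given.

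The sort antigens fitted the gates. Itga2b stood at 48 and 34.5 CPM in the HB libraries and 505 and 469 CPM in the HE2 libraries, with 227 and 127 CPM in HE1, 400.4 and 367 CPM in HP and 2.91 and 2.50 CPM in ES. The HE2 libraries had the highest Itga2b levels of the 5 stages. Kit, the stem cell factor receptor, was at 73.3 and 69.3 CPM in HB and 230.3 and 410.3 CPM in HE2. Tek, which encodes TIE2, was at 57.2 and 60.8 CPM in HB and 285 and 159 CPM in HE2. Kdr, which encodes FLK1, was at 957 and 1284 CPM in HB and 926 and 630.3 CPM in HE2. These genes chose the cells and are no finding. FLK1 RNA was nevertheless kept in HE2, where one library came close to the lower HB library, and Kdr was not called (log2 fold change -0.53, SE 0.275, edgeR quasi-likelihood adjusted p = 0.185). Markers that were not used in the sorts were also checked. Among the mesoderm markers of blood formation, Etv2 had 55.6 and 69.5 CPM in HB, Tal1 145 and 171 CPM and Lmo2 73.7 and 91.4 CPM. Among those of hemogenic endothelium, Cdh5 had 862 and 412 CPM in HE2, Runx1 295 and 519 CPM, Gfi1 14.1 and 12.6 CPM and Gfi1b 34.4 and 65.6 CPM. All of these markers were thus present where the label puts them, but Tal1 and Lmo2 were no lower in HE2 than in HB, as given below. Of these mesoderm markers only Etv2 was lower in HE2.

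Of 55487 genes in the files, 22596 had enough counts to be tested. Genes were called at a Benjamini-Hochberg adjusted p under 0.05 in edgeR's quasi-likelihood test and at least a 2-fold change. HE2 was higher than HB for 2206 genes (9.76% of those tested) and lower for 2478 (11.0%). Without HE2 replicate 2 the lower genes numbered 1643, and at a 4-fold change 1210 genes were higher and 1588 lower. Of the higher genes, 435 went from under 9 CPM in both HB libraries to at least 9 CPM in both HE2 libraries, and 462 of the lower genes went the other way. The median log2 fold change over all tested genes was 0.00.

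**Figure D1:**
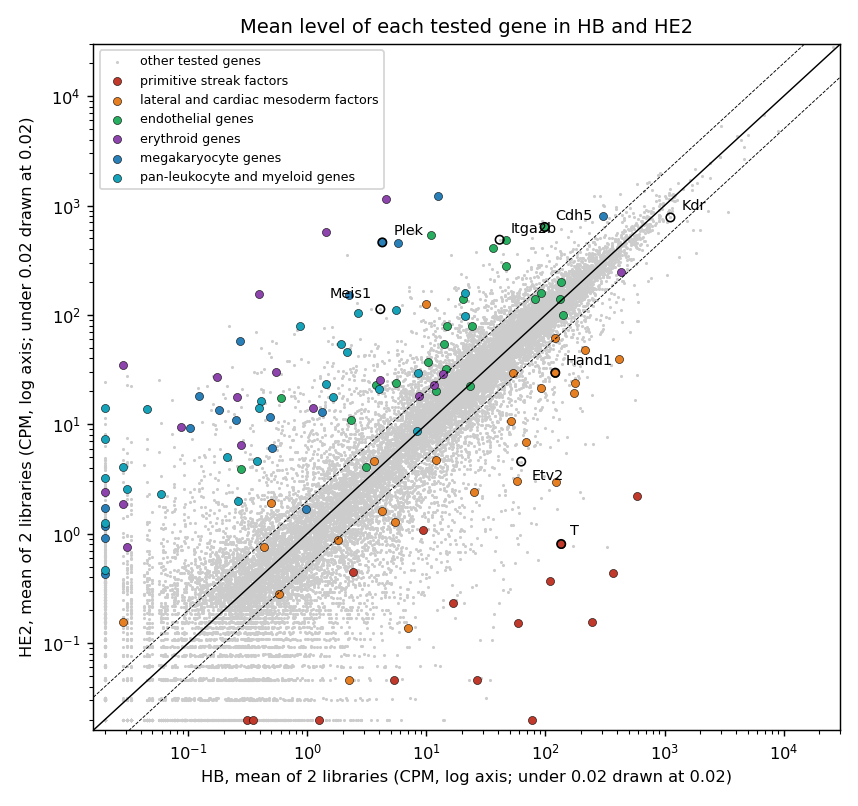
Mean level of every tested gene in the 2 HB libraries (horizontal, CPM, log axis) and the 2 HE2 libraries (vertical, CPM, log axis), with gene groups in color, the solid line at equal levels and dashed lines at a 2-fold difference. The primitive streak factors lie below the lines and most erythroid, megakaryocyte and myeloid genes above them.

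Genes with clone names (Gm, Rik and the like) were left out of the rankings. The 10 largest rises among the other called genes that reached 9 CPM included genes of blood cells as well as others. Evi2b, a leukocyte surface protein, had 1 count in the HB libraries together and stood at 18.6 and 29.8 CPM in HE2, a ratio of 1583, interval 284 to 62550. Evi2 overlaps Evi2b on the same strand, so their counts are uncertain. Ptprc, which encodes the pan-leukocyte phosphatase CD45, stood at 0 and 0.0282 CPM in HB and 9.87 and 18.2 CPM in HE2 (ratio 918, interval 164 to 36302). F13a1, the coagulation factor XIII A subunit of platelets and macrophages, was at 0.0331 and 0.0282 CPM in HB and 18.2 and 27.6 CPM in HE2. Ccl9, a chemokine of myeloid cells, was at 0.0661 and 0 CPM in HB and 19.1 and 25.4 CPM in HE2. The other genes at the top were Hba-a1 and Hba-x of the alpha-globin cluster, the collagen gene Col8a1, the inhibitory receptor gene Cd200r1 and Olr1, a receptor for oxidized lipoprotein. All 10 were at or below 1.80 CPM in HB and between 9.66 and 696 CPM in HE2. Ratios to genes with 1 to 3 counts in a stage carry 95% exact binomial intervals that cover counting error only.

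The 10 largest falls, ranked by the same rule, included genes of the primitive streak and of Nodal signaling as well as others. Mesp1, Lhx1, Mixl1 and Gsc encode transcription factors of the streak and its mesoderm, Fgf8 a growth factor, and Cfc1 a Nodal co-receptor. Cdh8, a cadherin gene, was at 12.2 and 15.2 CPM in HB and had no count in HE2, at least 147-fold lower. Ndufa4l2, which encodes a mitochondrial protein, fell from 29.3 and 33.5 to 0 and 0.0635 CPM (HB over HE2 ratio 1015, interval 281 to 8385). Amer3, a WNT pathway gene, fell from 23.8 and 33.6 to 0 and 0.0952 CPM (ratio 623, interval 213 to 3024). The HE2 libraries were at or next to 0 for all of them.

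The 15 transcription factors of the primitive streak and nascent mesoderm were all called lower in HE2, where 2478 of 22596 tested genes were. Mesp1, the master factor of the earliest cardiovascular mesoderm, stood at 74.7 and 78.4 CPM in the HB libraries and 0 and 0.0318 CPM in the HE2 libraries, the latter a single count. Its HB over HE2 ratio was 4932, interval 885 to 194831. Eomes, a T-box factor that acts with Nodal to form mesoderm, stood at 546 and 630.4 CPM in HB and 3.23 and 1.21 CPM in HE2 (log2 fold change -8.04, SE 0.48, edgeR quasi-likelihood adjusted p = 2.77e-06). The other T-box factor of the streak, brachyury (T), was at 148 and 123 CPM in HB and 0.975 and 0.635 CPM in HE2 (log2 fold change -7.38). In each case both HB libraries were far above both HE2 libraries. Homeobox factors of the streak did the same. Mixl1 was at 332 and 406 CPM in HB and 0.518 and 0.349 CPM in HE2, Lhx1 at 255 and 235 CPM in HB and 0.122 and 0.191 CPM in HE2, and Evx1 at 107 and 111 CPM in HB and 0.731 and 0 CPM in HE2. Sp5, a target of WNT signaling, was at 63.6 and 53.6 CPM in HB and 0.244 and 0.0635 CPM in HE2, and its relative Sp8 at 17.4 and 15.9 CPM in HB and 0.366 and 0.0952 CPM in HE2. The presomitic factors Tbx6 (10.4 and 8.45 CPM) and Mesp2 (5.55 and 5.10 CPM) and the caudal factors Cdx1, Cdx2 and Cdx4 (at most 3.27 CPM) were low already in HB. Msgn1, Cdx1 and Cdx4 had no count in HE2 and were at least 13.5-fold, 3.36-fold and 3.78-fold lower. Over the 15 genes the median log2 fold change was -8.04, or -7.38 with these 3 genes at their bounds. The summed level was 1593 and 1697 CPM in HB and 8.44 and 3.56 CPM in HE2, so the streak program was shut in both HE2 libraries. Leaving out HE2 replicate 1 moved the log2 fold change of Sp5 from -8.53 to -9.77, and leaving out HE2 replicate 2 moved it to -7.89. Without HE2 replicate 1 the log2 fold change of Eomes was -8.92, of Tbx6 -3.81 (from -3.12) and of Sp8 -7.39 (from -6.14), and without HE2 replicate 2 that of Evx1 was -7.21 (from -8.18). The lower calls numbered 13 without either HB library and 12 without either HE2 library. Cdx1 lost its call whichever library was left out, Cdx2 without any but HB replicate 2 and Cdx4 without any but HB replicate 1.

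Transcription factors of lateral plate and cardiac mesoderm were mostly lower. Of 25 genes, 15 were lower (60%, against 11.0% of all tested genes), 2 higher (8%, against 9.76%) and 8 not called. The median log2 fold change was -2.08. Tbx3, the most abundant of them in HB, stood at 377 and 447 CPM in the HB and 54.3 and 25.4 CPM in the HE2 libraries (log2 fold change -3.37, SE 0.376, edgeR quasi-likelihood adjusted p = 9.94e-05). Gata4, a zinc finger factor of heart and endoderm, stood at 199 and 229.5 CPM in HB and 63.8 and 31.9 CPM in HE2. Its relative Gata6 stood at 174 and 177 CPM in HB and 26.3 and 12.5 CPM in HE2. Hand1, a basic helix-loop-helix factor of the extraembryonic and cardiac mesoderm, was at 105 and 137 CPM in HB and 38.4 and 20.9 CPM in HE2. For all 4 genes the HE2 libraries lay below the HB libraries yet above 9 CPM. Msx1, Snai1 and Foxf1 reached lower levels. Msx1, a target of BMP signaling, was at 118 and 126 CPM in HB and 4.14 and 1.81 CPM in HE2. Snai1, which drives the loss of epithelial adhesion at the streak, was at 57.0 and 58.6 CPM in HB and 3.41 and 2.63 CPM in HE2. Foxf1, a factor of the splanchnic mesoderm, was at 21.2 and 29.0 CPM in HB and 3.32 and 1.46 CPM in HE2. These 3 were below 9 CPM in both HE2 libraries. Isl1 and Tbx5, markers of the heart fields, were low in HB and lower in HE2. Isl1 was at 7.11 and 6.84 CPM in HB and 0.244 and 0.0318 CPM in HE2, and Tbx5 at 1.75 and 2.73 CPM in HB and 0.0609 and 0.0318 CPM in HE2 (HB over HE2 ratio 48.9, interval 16.4 to 240). The heart factors Hand2 and Tbx20 were not called. Hand2 was at 46.1 and 59.7 CPM in HB and 35.5 and 23.9 CPM in HE2, and Tbx20 at 111 and 129.9 CPM in HB and 75.6 and 46.8 CPM in HE2. Both became lower calls when HB replicate 1 or HE2 replicate 1 was left out, Tbx20 at a log2 fold change of -1.12 or -1.35 and Hand2 at -1.04 or -1.14. Without HE2 replicate 1 the log2 fold change of Tbx3 was -4.01, of Gata6 -3.80, of Msx1 -6.07, of Foxf1 -4.09 and of Isl1 -7.62 (from -5.61, with a single count left), and without HE2 replicate 2 that of Isl1 was -4.82.

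A pair of genes of that list rose. Mef2c, a MADS-box factor used in heart, endothelium and megakaryocytes, stood at 10.9 and 9.04 CPM in HB and 102 and 152 CPM in HE2 (log2 fold change 3.67, SE 0.308, edgeR quasi-likelihood adjusted p = 1.81e-05). Snai2, a relative of Snai1, stayed at or below 2.25 CPM throughout, and its call was lost when HB replicate 1, HB replicate 2 or HE2 replicate 1 was left out (log2 fold change 1.73, 2.14 or 1.67).

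Ligands and secreted antagonists of mesoderm fell on the whole. Of 28 genes, 22 were lower (78.6%, against 11.0% of all tested genes) and 0 higher (against 9.76%). Their median log2 fold change was -3.13. Fgf8, needed for mesoderm cells to leave the streak, was at 37.5 and 31.2 CPM in HB and 0.0609 and 0.0318 CPM in HE2 (HB over HE2 ratio 731, interval 250 to 3547). Nodal, the inducer of mesoderm and endoderm, was at 16.1 and 10.7 CPM in HB and 2.29 and 0.635 CPM in HE2. Its antagonist Lefty2 was at 54.2 and 43.3 CPM in HB and 0.396 and 0.191 CPM in HE2. The antagonist gene Cer1 had no count in HE2, at least 30.3-fold lower than its 2.61 and 3.04 CPM in HB. The WNT ligand gene Wnt3, which starts the streak, was at 101 and 116 CPM in HB and 8.99 and 3.46 CPM in HE2. Wnt5a, a ligand of cell movement, was at 129.5 and 148 CPM in HB and 21.5 and 10.5 CPM in HE2, and its relative Wnt5b at 19.1 and 19.1 CPM in HB and 0.67 and 0.698 CPM in HE2. Of these only Wnt5a remained above 9 CPM in both HE2 libraries. Dkk1, an antagonist of WNT, was at 44.8 and 58.7 CPM in HB and 1.49 and 0.921 CPM in HE2.

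BMP ligands split. Bmp4, which induces ventral mesoderm and blood, was at 89.7 and 140.5 CPM in HB and 43.0 and 31.1 CPM in HE2 (log2 fold change -1.64, SE 0.27, edgeR quasi-likelihood adjusted p = 0.00117). Bmp7 was at 23.7 and 32.9 CPM in HB and 0.213 and 0 CPM in HE2, and Bmp5 at 12.6 and 18.6 CPM in HB and 0.731 and 0.254 CPM in HE2. Bmp2, a close relative of Bmp4, was not called, at 110.4 and 134 CPM in HB and 73.4 and 70.1 CPM in HE2 (log2 fold change -0.77, SE 0.171, edgeR quasi-likelihood adjusted p = 0.00684). Both Bmp4 and Bmp2 thus had non-overlapping libraries with lower values in HE2, but only for Bmp4 was the difference 2-fold. Vegfa, whose product binds FLK1, was at 112 and 106 CPM in HB and 47.8 and 17.97 CPM in HE2. Vegfc, whose product binds FLT4, was at 28.4 and 35.4 CPM in HB and 13.2 and 15.9 CPM in HE2. The call for Vegfc was lost without HB replicate 2 (log2 fold change -0.97) or HE2 replicate 1, and without HE2 replicate 1 the log2 fold change of Vegfa was -2.59, of Wnt5a -3.72 and of Lefty2 -7.97, where with all libraries they were -1.73, -3.11 and -7.35. That of Bmp7 was -7.98, or -7.03 without HE2 replicate 2, and without HE2 replicate 1 only the floor remains. The log2 fold changes of Nodal, Wnt3 and Bmp5 went from -3.18, -4.12 and -4.97 to -4.38, -4.96 and -5.91 without HE2 replicate 1, and that of Nodal to -2.54 without HE2 replicate 2.

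Receptors of mesoderm signals were lower in part. Of 25, 11 were lower (44%, against 11.0% of all tested genes), 1 higher (4%, against 9.76%) and 13 not called. The median log2 fold change was -0.68. Tdgf1, the Nodal co-receptor also called Cripto, was at 305 and 353 CPM in HB and 0.792 and 0.73 CPM in HE2 (log2 fold change -8.75, SE 0.9, edgeR quasi-likelihood adjusted p = 5.97e-05). Pdgfra, which marks paraxial and cardiac mesoderm, was at 193 and 196 CPM in HB and 3.32 and 1.49 CPM in HE2. Fzd7, a WNT receptor, was at 409 and 461 CPM in HB and 31.1 and 24.1 CPM in HE2. Tdgf1 and Pdgfra were below 9 CPM in HE2 and Fzd7 was not. Among BMP receptors Bmpr2 stood at 213 and 188 CPM in HB and 241 and 172 CPM in HE2, and Bmpr1a at 163 and 169.8 CPM in HB and 109 and 98.8 CPM in HE2. Among WNT co-receptors Lrp5 stood at 154 and 176 CPM in HB and 129 and 116 CPM in HE2, and Lrp6 at 198 and 209 CPM in HB and 172 and 177 CPM in HE2. None of these 4 was called, and for Bmpr2 the stages overlapped. Fgfr3, a receptor of fibroblast growth factors, was the only member that rose, from 4.53 and 4.03 CPM in HB to 16.1 and 22.5 CPM in HE2. Fgfr1, another, was at 227 and 206 CPM in HB and 118 and 59.2 CPM in HE2 and lost its lower call without HE2 replicate 2 (log2 fold change -0.87 in place of -1.28). The call for Fzd2 was lost without HB replicate 2 or HE2 replicate 2 (log2 fold change -1.11 or -0.88 in place of -1.14). Without HE2 replicate 1 the log2 fold change of Pdgfra was -7.01 in place of -6.33. Bmpr1b was low in HB (3.24 and 2.51 CPM) and at 0.122 and 0 CPM in HE2, and its log2 fold change of -5.46 became -4.52 without HE2 replicate 2, whereas without HE2 replicate 1 only the floor remains. Acvrl1 and Aplnr, which encode a BMP9 receptor and the apelin receptor of endothelium, differed more between the HE2 libraries than between stages. Acvrl1 was at 22.1 and 21.8 CPM in HB and 76.8 and 16.5 CPM in HE2, and Aplnr at 130.1 and 149 CPM in HB and 161 and 36.8 CPM in HE2. Acvrl1 had a log2 fold change of -0.41 without HE2 replicate 1 and 1.81 without HE2 replicate 2, where it was called higher. Aplnr had log2 fold changes of -1.92 and 0.21 in these fits and was called lower in the former.

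Genes that report on signaling through these receptors fell in 12 of 20 cases (60%, against 11.0% of all tested genes). None rose (against 9.76%), and the median log2 fold change was -2.01. Axin2, the feedback inhibitor of WNT, was at 127 and 130.2 CPM in HB and 12.0 and 10.3 CPM in HE2 (log2 fold change -3.52, SE 0.3, edgeR quasi-likelihood adjusted p = 1.92e-05). Lef1, a nuclear partner of beta-catenin, was at 85.6 and 94.2 CPM in HB and 23.0 and 3.97 CPM in HE2. Targets of FGF fell too. The ETS factor gene Etv4 was at 30.8 and 27.8 CPM in HB and 3.84 and 0.603 CPM in HE2, and Etv5 at 87.9 and 90.5 CPM in HB and 9.81 and 3.40 CPM in HE2. The FGF inhibitor gene Spry4 was at 58.6 and 57.4 CPM in HB and 7.80 and 1.18 CPM in HE2, and the phosphatase gene Dusp6 at 108 and 88.1 CPM in HB and 39.2 and 12.5 CPM in HE2. In all of these genes both HE2 libraries were below both HB libraries. Genes that answer BMP differed: beside the lower Msx1 and Bambi, Id4 was lower, at 7.60 and 6.70 CPM in HB and 2.19 and 0.762 CPM in HE2, and Id1, Id3, Smad6 and Smad7 were not called. Id1 was at 53.5 and 48.3 CPM in HB and 46.9 and 30.8 CPM in HE2, and Id3 at 66.4 and 81.0 CPM in HB and 64.3 and 30.1 CPM in HE2. Smad6 was at 109 and 136 CPM in HB and 212 and 114 CPM in HE2, and Smad7 at 179 and 177 CPM in HB and 137 and 61.9 CPM in HE2. For Smad6, an inhibitor of BMP signaling, the stages overlapped, and without HE2 replicate 1 its log2 fold change turned from 0.42 to -0.093. Without that library Smad7 and Id3 were called lower (log2 fold change -1.51 and -1.29), and the log2 fold changes of Etv4, Etv5 and Dusp6 moved from -3.71, -3.75 and -1.92 to -5.59, -4.71 and -2.97. Those of Lef1 and Spry4 moved from -2.73 and -3.69 to -4.49 and -5.62, and to -1.96 and -2.90 without HE2 replicate 2. Without HE2 replicate 2 Etv4 was at -2.93 and Dusp6 at -1.32, and the lower call of the BMP decoy receptor gene Bambi was lost (-0.98 in place of -1.24).

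Mesoderm genes retained in HE2 were counted over these 5 lists together. Of 111 genes, 80 reached 9 CPM in both HB libraries. Of these, 42 were retained, with at least 9 CPM in both HE2 libraries (52.5%), 32 were lost from both HE2 libraries (40%) and 6 differed between them. Over all tested genes the shares were 91.4% retained and 5.49% lost of 10004. Among the retained mesoderm genes, 21 were called lower all the same, 20 were not called and 1 was higher, where 4.13% of all retained genes were called lower. By list, with a gene of 2 lists counted in both, 0 of 9 streak factors expressed in HB, 9 of 15 lateral and cardiac factors, 8 of 20 ligands, 16 of 21 receptors and 10 of 17 target genes were retained. Summed levels of the receptors were 2566 and 2630 CPM in ES and 2541 and 2671 CPM in HB. Those of the target genes were 1121 and 1090 CPM in ES and 1292 and 1326 CPM in HB. For the ligands they were 1077 and 1112 against 1284 and 1468 CPM. These sums were thus not particular to mesoderm. Streak factors summed to 21.1 and 21.2 CPM in ES and 1593 and 1697 CPM in HB. Lateral and cardiac factors summed to 204 and 200 CPM in ES and 1617 and 1858 CPM in HB. Among the retained lateral and cardiac factors were Mef2c, Tbx20, Hand2, Hand1, Gata4, Gata6, Tbx3 and Prdm6. Prdm6, a repressor of smooth muscle genes, was at 169 and 184 CPM in HB and 27.9 and 19.8 CPM in HE2. The retained ligands were Bmp2, Bmp4, Bmper, Fgf10, Wnt5a, Rspo3, Vegfa and Vegfc. Among them Fgf10, a growth factor of limb and lung mesoderm, was at 196 and 228 CPM in HB and 44.1 and 72.4 CPM in HE2. Rspo3, which strengthens WNT signaling, was at 99.8 and 122 CPM in HB and 45.6 and 27.9 CPM in HE2. Bmper, an extracellular BMP regulator, was at 52.9 and 59.0 CPM in HB and 19.5 and 12.9 CPM in HE2. Each of these was lower in both HE2 libraries than in both HB libraries. With a minimum of 20 CPM, 26 of 68 mesoderm genes were retained (38.2%, against 90.3% of all genes).

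**Figure D2:**
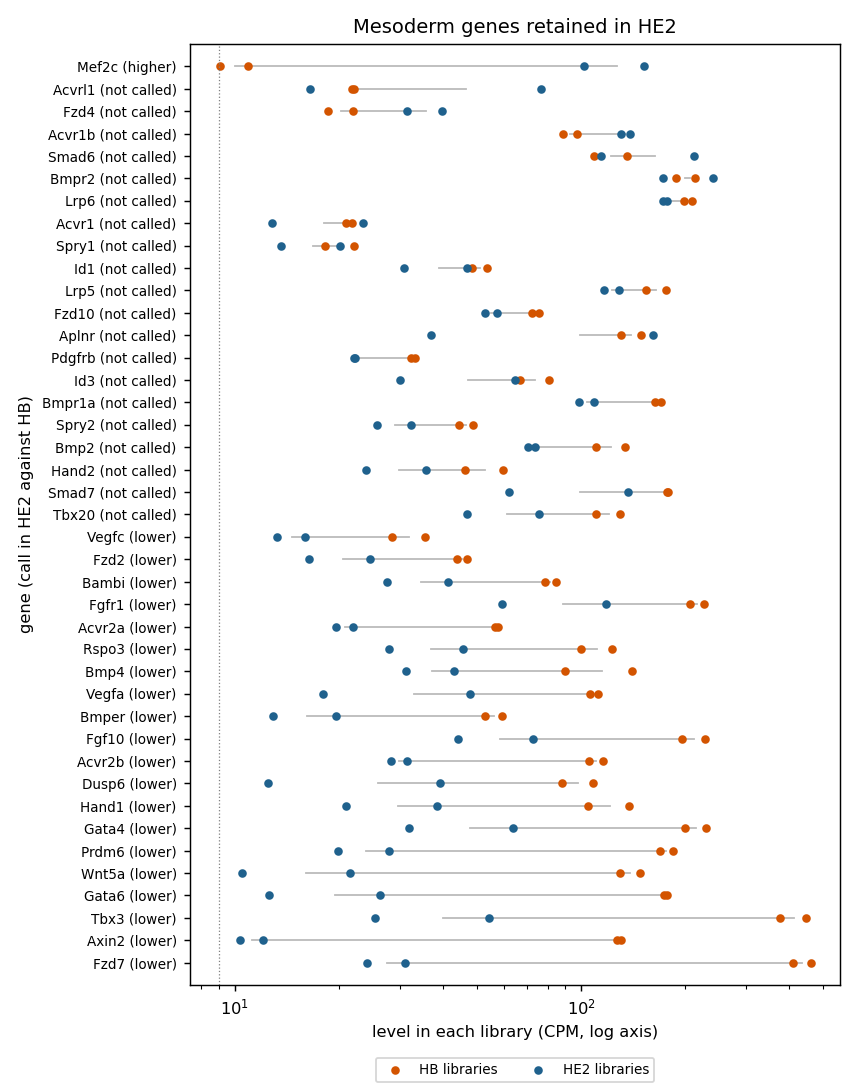
Level of retained mesoderm genes, with 1 of the 42 not drawn, in the HB and HE2 libraries (horizontal, CPM, log axis), ordered by log2 fold change, with a line joining the stage means and a dotted line at 9 CPM. The call for HE2 against HB stands beside each symbol, and the genes called lower stand at the bottom.

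Of 18 transcription factors that early blood and endothelium share, 10 were higher (55.6%, against 9.76% of all tested genes). In the same list 1 was lower (5.56%, against 11.0%) and 7 were not called, at a median log2 fold change of 1.03. With limma-voom 8 were higher and with total counts 7. Of the 16 expressed in HB, 14 were retained (87.5%, against 91.4% of all genes), 1 was lost and 1 differed between the HE2 libraries. Etv2 stood at 55.6 and 69.5 CPM in HB and 5.73 and 3.40 CPM in HE2, with 3.79 and 5.25 CPM in HE1, 1.94 and 2.29 CPM in HP and 0.639 and 0.545 CPM in ES. Both HB libraries were far above all other libraries (log2 fold change HE2 to HB -3.77, SE 0.293, edgeR quasi-likelihood adjusted p = 1.15e-05). Meis1, a homeobox factor of stem cells and megakaryocytes, stood at 4.66 and 3.55 CPM in HB and 84.4 and 141 CPM in HE2, with 53.0 and 35.1 CPM in HE1, 96.3 and 91.2 CPM in HP and 2.75 and 1.55 CPM in ES. Both HE2 libraries were far above both HB libraries (log2 fold change 4.78, SE 0.352, edgeR quasi-likelihood adjusted p = 8.06e-06). Lyl1, a partner of LMO2 close to TAL1, was at 10.7 and 9.78 CPM in HB and 95.1 and 142 CPM in HE2 (log2 fold change 3.54). The ETS factor gene Erg was at 14.1 and 14.3 CPM in HB and 83.5 and 93.0 CPM in HE2, and its relative Fli1 at 65.4 and 69.3 CPM in HB and 191 and 191 CPM in HE2. Tal1 itself was already at 145 and 171 CPM in HB and reached 277 and 374 CPM in HE2 (log2 fold change 1.04, SE 0.243, edgeR quasi-likelihood adjusted p = 0.00853), a call that was lost without HB replicate 1 or HE2 replicate 2 (log2 fold change 0.90 or 0.81).

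Partners of TAL1 and a further factor were not called. Lmo2, the bridging protein of the TAL1 complex, was at 73.7 and 91.4 CPM in HB and 87.6 and 83.0 CPM in HE2. Ldb1, which dimerizes that complex, was at 174 and 150.2 CPM in HB and 185 and 160.2 CPM in HE2. Gata2, its zinc finger member, was at 65.8 and 81.7 CPM in HB and 63.5 and 59.1 CPM in HE2. Hhex, a homeobox factor of the hemangioblast, was at 43.6 and 45.2 CPM in HB and 41.4 and 44.3 CPM in HE2. For Lmo2 and Ldb1 the direction is not defined, since the log2 fold change of Lmo2 turned from 0.047 to -0.13 without HB replicate 1 and that of Ldb1 from 0.093 to -0.019 without HB replicate 2 and to -0.010 without HE2 replicate 1. The SOXF genes differed between the HE2 libraries: Sox17 was at 14.6 and 12.4 CPM in HB and 31.0 and 8.38 CPM in HE2, Sox7 at 58.1 and 67.1 CPM in HB and 54.0 and 13.8 CPM in HE2, and Sox18 at 23.5 and 22.5 CPM in HB and 92.0 and 44.9 CPM in HE2. These factors of endothelial and arterial fate were lower in HE2 replicate 2 in each case. The Sox18 call was lost without HB replicate 1, HB replicate 2 or HE2 replicate 1 (log2 fold change 1.56, 1.53 or 0.97 in place of 1.57), and the log2 fold change of Sox17 turned from 0.55 to -0.68 in the last case. The higher calls in this list numbered 5 without HB replicate 1, 6 without HB replicate 2 and 6 without HE2 replicate 1, where 2 were lower, Etv2 and Sox7 (log2 fold change of Sox7 -2.17 in place of -0.89). Besides Sox18, the factor genes Ets1, Ets2 and Mecom lost their calls in each of these 3 fits.

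**Figure D3:**
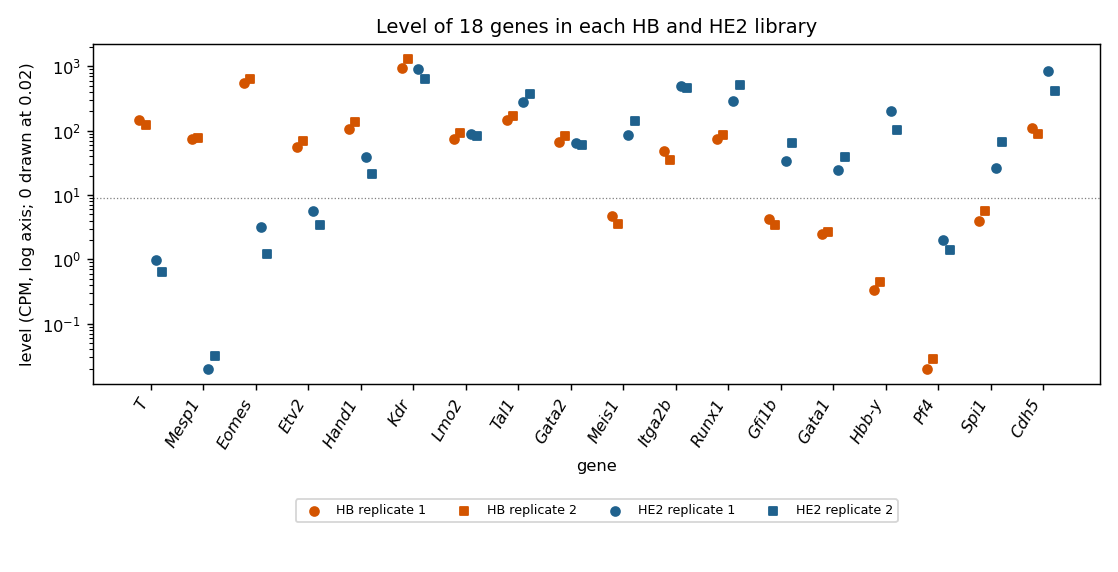
Level of 18 genes in each HB library (orange) and HE2 library (blue) in CPM on a log axis, with a level of 0 drawn at the lower edge and a dotted line at 9 CPM. Etv2 and the streak factors are lower in both HE2 libraries, Kdr, Lmo2 and Gata2 overlap or lie close, and Meis1, Itga2b and the blood factors are higher in both HE2 libraries.

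Endothelial genes rose in 13 of 24 cases (54.2%, against 9.76% of all tested genes) and none fell (against 11.0%). Their median log2 fold change was 2.03. Without HE2 replicate 1, 1 gene of the list, Aplnr, was lower. Cd34, a sialomucin of endothelial and blood progenitors, stood at 12.0 and 10.0 CPM in HB and 539 and 539 CPM in HE2 (log2 fold change 5.62, SE 0.209, edgeR quasi-likelihood adjusted p = 3.86e-07). Pecam1, the junction protein CD31, was at 39.3 and 32.9 CPM in HB and 483 and 339.8 CPM in HE2 (log2 fold change 3.51, SE 0.247, edgeR quasi-likelihood adjusted p = 6.35e-06). Cdh5, which encodes VE-cadherin, was at 109 and 87.6 CPM in HB and 862 and 412 CPM in HE2 (log2 fold change 2.69, SE 0.39, edgeR quasi-likelihood adjusted p = 0.000521). In all 3 genes both HE2 libraries were above both HB libraries, and only for Cd34 were the HE2 libraries alike. Tie1, an orphan receptor of endothelium, was at 56.5 and 37.5 CPM in HB and 552 and 412 CPM in HE2. Eng, the TGF-beta co-receptor endoglin, was at 45.8 and 48.0 CPM in HB and 365 and 199 CPM in HE2. Several genes that were not called had one HE2 library at or near the HB level. Mmrn2, a matrix protein of blood vessels, was at 15.4 and 12.8 CPM in HB and 92.6 and 15.6 CPM in HE2. Robo4, a guidance receptor of endothelium, was at 6.18 and 4.93 CPM in HB and 41.6 and 6.51 CPM in HE2. Flt4, a receptor of VEGF-C, was at 81.0 and 81.2 CPM in HB and 202 and 76.7 CPM in HE2. Egfl7, a secreted endothelial protein, was at 143 and 125 CPM in HB and 279 and 119 CPM in HE2. HE2 replicate 2 was the low library for all 4. Without it Mmrn2, Robo4, Egfl7, Flt4 and Ramp2 were called higher (log2 fold change 2.72, 2.90, 1.06, 1.32 and 1.07), where without HE2 replicate 1 those of Mmrn2 and Robo4 were 0.15 and 0.24, and without HE2 replicate 1 the log2 fold changes of Egfl7 and Flt4 turned to -0.16 and -0.075 from 0.57 and 0.78. Ramp2, a co-receptor for adrenomedullin, shares 33.4% of its exon length with Vps25, so its counts are uncertain. Clec14a and Emcn, surface proteins of endothelium, were near 0 in HB. Clec14a was at 0.827 and 0.366 CPM in HB and 26.1 and 8.98 CPM in HE2, and Emcn at 0.298 and 0.254 CPM in HB and 6.22 and 1.52 CPM in HE2. Their log2 fold changes of 4.90 and 3.80 became 3.94 and 2.46 without HE2 replicate 1, that of Emcn 4.48 without HE2 replicate 2, and that of Clec14a 5.53 without HB replicate 1. That of Cdh5 was 2.07 without HE2 replicate 1.

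Of 19 Notch pathway and arterial genes, 1 was higher (5.26%, against 9.76% of all tested genes), 6 were lower (31.6%, against 11.0%) and 12 were not called, at a median log2 fold change of -0.77. Hes1, a repressor induced by Notch, was at 84.7 and 98.8 CPM in HB and 17.0 and 10.6 CPM in HE2 (log2 fold change -2.73). Hey1, another, was at 58.5 and 72.0 CPM in HB and 7.68 and 8.44 CPM in HE2 (log2 fold change -3.02). The ligand gene Dll1, of paraxial mesoderm, was at 22.8 and 13.0 CPM in HB and 1.16 and 0.444 CPM in HE2. Cxcr4, a chemokine receptor of mesoderm and arteries, was at 75.3 and 96.5 CPM in HB and 0.823 and 0.318 CPM in HE2. All 4 had both HE2 libraries below both HB libraries. The receptors Notch1 and Notch2 were not called. Notch1 was at 196 and 179.7 CPM in HB and 323 and 158 CPM in HE2, and Notch2 at 230.2 and 263 CPM in HB and 134 and 147 CPM in HE2. The HB and HE2 libraries overlapped for Notch1, whose log2 fold change turned from 0.36 to -0.24 without HE2 replicate 1. Dll4, the arterial ligand, was at or below 3.70 CPM in all 4 libraries. Gja4, a gap junction protein of arteries, was the member called higher, at 8.86 and 7.30 CPM in HB and 41.2 and 14.9 CPM in HE2, and its call was lost when HB replicate 1, HB replicate 2 or HE2 replicate 1 was left out (log2 fold change 1.90, 1.65 or 0.90 in place of 1.80). Unc5b, a netrin receptor of arteries, was at 236 and 254 CPM in HB and 224 and 63.2 CPM in HE2. Its log2 fold change of -0.77 became -0.13 without HE2 replicate 2, and it was called lower at -1.95 without HE2 replicate 1. Without that library the log2 fold change of Cxcr4 moved from -7.22 to -8.06 and that of Dll1 from -4.47 to -5.31. Of 4 venous genes, 1 was higher (25%, against 9.76% of all tested genes): Flrt2, an adhesion protein, at 6.22 and 6.14 CPM in HB and 66.6 and 49.7 CPM in HE2. Ephb4, a receptor of veins, was at 144 and 148 CPM in HB and 248 and 156 CPM in HE2, and Nrp2, another, at 241 and 291 CPM in HB and 320.2 and 166 CPM in HE2. The log2 fold change of Nrp2 turned from -0.13 to 0.27 without HE2 replicate 2.

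Hematopoietic transcription factors rose in 14 of 22 cases (63.6%, against 9.76% of all tested genes), with 1 lower (4.55%, against 11.0%). Their median log2 fold change was 1.98. Runx1, which the switch from endothelium to blood requires, stood at 73.8 and 84.7 CPM in HB and 295 and 519 CPM in HE2 (log2 fold change 2.36, SE 0.247, edgeR quasi-likelihood adjusted p = 6.76e-05). Its target Gfi1 was at 3.27 and 3.24 CPM in HB and 14.1 and 12.6 CPM in HE2 (log2 fold change 2.03), and Gfi1b at 4.30 and 3.44 CPM in HB and 34.4 and 65.6 CPM in HE2 (log2 fold change 3.69). Runx1 was therefore well expressed in HB, whereas both GFI1 genes were below 9 CPM there. Gata1, the main factor of red cells and megakaryocytes, was at 2.51 and 2.65 CPM in HB and 24.5 and 38.5 CPM in HE2. Klf1, of red cells, was at 0.496 and 0.394 CPM in HB and 13.9 and 17.6 CPM in HE2, and Nfe2, of red cells and platelets, at 4.73 and 4.45 CPM in HB and 63.5 and 126 CPM in HE2. All 3 were under 9 CPM in HB and above it in HE2. Spi1, which encodes the myeloid factor PU.1, was at 3.93 and 5.63 CPM in HB and 26.4 and 65.9 CPM in HE2 (log2 fold change 3.27, SE 0.43, edgeR quasi-likelihood adjusted p = 0.00028). Myb, needed for definitive blood, was at 18.1 and 16.03 CPM in HB and 125 and 227 CPM in HE2. Ikzf1, of the lymphoid and myeloid lines, was at 20.1 and 25.0 CPM in HB and 114.9 and 261 CPM in HE2. HE2 replicate 2 had the higher level of Runx1, Gfi1b, Spi1, Myb and Ikzf1, and each HE2 library was above both HB libraries. Without it the log2 fold change of Spi1 was 2.46 and that of Ikzf1 2.35 in place of 3.06. Factors of red cells, platelets and myeloid cells were thus raised in the same libraries. Cbfb, the partner of RUNX1, was not called, at 109.8 and 121 CPM in HB and 156 and 169.8 CPM in HE2. Zfpm1, the partner of GATA1, was not called either, at 232 and 255 CPM in HB and 326 and 379.6 CPM in HE2. Runx3 was the only lower member, at 5.88 and 6.08 CPM in HB and 0.975 and 1.02 CPM in HE2. Hlf, a factor of stem cells, was at or below 0.853 CPM in all 4 libraries, and the myeloid factor gene Cebpa was at or below 3.87 CPM and not called. Bcl11a, a repressor of embryonic globins, was at 15.9 and 14.3 CPM in HB and 12.9 and 21.3 CPM in HE2, and its log2 fold change turned from 0.18 to -0.22 without HE2 replicate 2.

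Erythroid genes rose in 16 of 18 cases (88.9%, against 9.76% of all tested genes). Their median log2 fold change was 5.79 (5.24 with the gene without HB counts at its bound). Among the genes that rose, the embryonic globins reached the highest levels. Hbb-bh1, of the beta-globin cluster, was at 4.60 and 4.54 CPM in HB and 1225 and 1063 CPM in HE2 (log2 fold change 7.97, SE 0.433, edgeR quasi-likelihood adjusted p = 1.9e-06). Its neighbor Hbb-y was at 0.331 and 0.451 CPM in HB and 206 and 104 CPM in HE2, and Hba-x, of the alpha-globin cluster, at 1.06 and 1.80 CPM in HB and 696 and 461 CPM in HE2. Per kilobase of exon, Hbb-bh1 reached 1866 CPM in HE2, behind only Eef1a1 and Actb among protein-coding genes without a clone name. Of the adult alpha-globin genes, Hba-a1 was at 42.4 and 26.7 CPM in HE2 and Hba-a2 at 1.55 and 3.21 CPM. Of the adult beta-globin genes, Hbb-bs was at 13.8 and 4.92 CPM in HE2 and Hbb-bt at 0.762 and 0.762 CPM. These pairs are nearly identical copies, so the split of counts between the copies is uncertain. Hba-a2 had no count in HB and was at least 25.9-fold higher in HE2, and the ratio for Hba-a1 was 1142, interval 316 to 9440. Slc4a1, the band 3 anion exchanger, was at 0.265 and 0.0845 CPM in HB and 40.7 and 13.0 CPM in HE2. HE2 replicate 1 had the higher level of Hbb-y and Slc4a1, in contrast to the blood transcription factors, and without it the log2 fold change of Slc4a1 was 6.25 and that of Hbb-bs 5.72 in place of 7.29 and 6.64. Those of Slc4a1 and Hbb-bs were 8.21 and 5.98 without HB replicate 1, and 6.63 and 7.99 without HB replicate 2. The higher calls of the list numbered 14 without HB replicate 1, where Blvrb and Hebp1, enzyme and heme-binding protein genes, lost theirs. Both also lost them without HE2 replicate 1, and Blvrb without HB replicate 2. The summed level of the list was 2659 and 2065 CPM in HE2 and 5515 and 2976 CPM in HP. Tfrc, the transferrin receptor of dividing cells, was not called, at 407 and 459 CPM in HB and 236 and 256 CPM in HE2. Epor, the erythropoietin receptor, was not called either, at 12.9 and 10.4 CPM in HB and 21.7 and 23.8 CPM in HE2. Epor became a higher call without HE2 replicate 1 (log2 fold change 1.03). The 2 HB counts of Hba-a1 were all in HB replicate 2, so without that library only the floor remains.

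Megakaryocyte and platelet genes rose in 17 of 18 tested cases (94.4%, against 9.76% of all tested genes). A further member, Ppbp, had too few counts to be tested. Their median log2 fold change was 6.24, or 5.77 with genes at 0 in HB at their bounds. Itgb3, the integrin subunit that pairs with CD41, stood at 11.7 and 13.2 CPM in HB and 1065 and 1405 CPM in HE2 (log2 fold change 6.63, SE 0.287, edgeR quasi-likelihood adjusted p = 7.6e-07). Plek, which encodes the protein kinase C substrate pleckstrin, was at 3.97 and 4.56 CPM in HB and 383 and 538 CPM in HE2 (log2 fold change 6.75, SE 0.328, edgeR quasi-likelihood adjusted p = 1.06e-06). Thbs1, the matrix protein thrombospondin, was at 7.54 and 4.11 CPM in HB and 502 and 405 CPM in HE2. Rab27b, a GTPase of granule release, was at 2.05 and 2.39 CPM in HB and 119 and 187 CPM in HE2. Both HE2 libraries were far above both HB libraries for all 4 genes. Some platelet genes stayed low. Pf4, a chemokine of platelet granules, was at 2.01 and 1.40 CPM in HE2. Gp9, a platelet surface protein, was at 0.67 and 1.18 CPM in HE2, and Treml1, another, at 1.13 and 1.24 CPM. Gp9 and Treml1 had no count in HB and were at least 10-fold and 12.9-fold higher in HE2, and the ratio for Pf4 was 112, interval 19.8 to 4482. F2r, the thrombin receptor, was the member that HB already expressed strongly, at 280.5 and 330 CPM, and it rose to 912 and 699 CPM. Gp1bb shares 92.9% of its exon length with genes on the same strand, among them Sept5, and was not called.

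Pan-leukocyte and myeloid genes rose in 25 of 26 cases (96.2%, against 9.76% of all tested genes) and none fell (against 11.0%). Their median log2 fold change was 5.00 (4.47 with Ncf4 and Cybb, without HB counts, at their bounds). Mpo, the granule enzyme myeloperoxidase, stood at 2.58 and 2.76 CPM in HB and 61.5 and 148 CPM in HE2 (log2 fold change 5.29, SE 0.694, edgeR quasi-likelihood adjusted p = 0.000272). Laptm5, a lysosomal protein of blood cells, was at 5.03 and 6.14 CPM in HB and 92.3 and 131 CPM in HE2. Csf2rb, the shared receptor chain of IL-3 and GM-CSF, was at 0.992 and 0.732 CPM in HB and 77.4 and 81.3 CPM in HE2. Alox5ap, an activator of leukotriene synthesis, was at 2.25 and 2.08 CPM in HB and 42.0 and 48.7 CPM in HE2. In these genes both HE2 libraries were above both HB libraries, and HE2 replicate 2 was the higher. Without it the log2 fold change of Mpo was 4.52. Genes of mature macrophages and granulocytes were present at low levels. Csf1r, the macrophage growth factor receptor, was at 3.11 and 2.03 CPM in HE2 (ratio 84.9, interval 23.1 to 706). Lyz2, which encodes lysozyme, was at 14.7 and 12.9 CPM (ratio 304, interval 104 to 1475). Cybb, the catalytic oxidase subunit of phagocytes, was at 0.579 and 0.349 CPM, at least 5.05-fold above HB. Ncf4, another oxidase subunit, was at 1.31 and 1.18 CPM, at least 13.5-fold above HB. Itgam, which encodes CD11b, was at 6.92 and 7.87 CPM in HE2, but it shares 68.7% of its exon length with Gm49368 and its counts are uncertain. Its ratio was 486, interval 86.7 to 19221, and the single HB count of Itgam, like that of Ptprc, was in HB replicate 2, so without that library only the floor remains. Csf2ra, a chain of the GM-CSF receptor, was not called, at 9.95 and 6.82 CPM in HB and 9.45 and 7.78 CPM in HE2, and the sign of its log2 fold change of 0.040 turned without HB replicate 2 or HE2 replicate 1 (-0.22 or -0.10).

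Kinases and actin regulators of blood cells rose almost without exception. Of 24, 23 were higher (95.8%, against 9.76% of all tested genes) and 1 lower (4.17%, against 11.0%), at a median log2 fold change of 3.17. Plcg2, a phospholipase below immune receptors, was at 29.5 and 22.8 CPM in HB and 289 and 467 CPM in HE2. Inpp5d, the lipid phosphatase SHIP1, was at 11.8 and 10.1 CPM in HB and 147 and 184 CPM in HE2 (log2 fold change 3.92, SE 0.18, edgeR quasi-likelihood adjusted p = 7.6e-07). The kinase gene Syk was at 12.4 and 10.8 CPM in HB and 65.6 and 109.8 CPM in HE2, Lyn at 6.48 and 6.08 CPM in HB and 127 and 118 CPM in HE2, and Btk at 0.0331 and 0.113 CPM in HB and 6.95 and 9.37 CPM in HE2. All stood higher in both HE2 libraries, and the log2 fold change of Btk was 6.10 without HB replicate 1 and 7.79 without HB replicate 2, with a single count left, in place of 6.69. Vav1, which activates RAC, was at 2.18 and 1.77 CPM in HB and 20.5 and 41.1 CPM in HE2. Was, which activates the actin nucleator ARP2/3, was at 1.42 and 1.83 CPM in HB and 37.5 and 71.5 CPM in HE2. Rac2, the RAC GTPase of blood cells, was at 0.364 and 0.507 CPM in HB and 2.56 and 6.76 CPM in HE2. These genes followed the kinases, and without HE2 replicate 2 the log2 fold change of Vav1 was 3.38 and that of Rac2 2.54 in place of 3.96 and 3.40. Prkcb, a protein kinase C gene, was lower, at 2.88 and 2.87 CPM in HB and 1.28 and 1.08 CPM in HE2, and its call was lost without HB replicate 1, HB replicate 2 or HE2 replicate 2 (log2 fold change -1.32, -1.29 or -1.17).

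**Figure D4:**
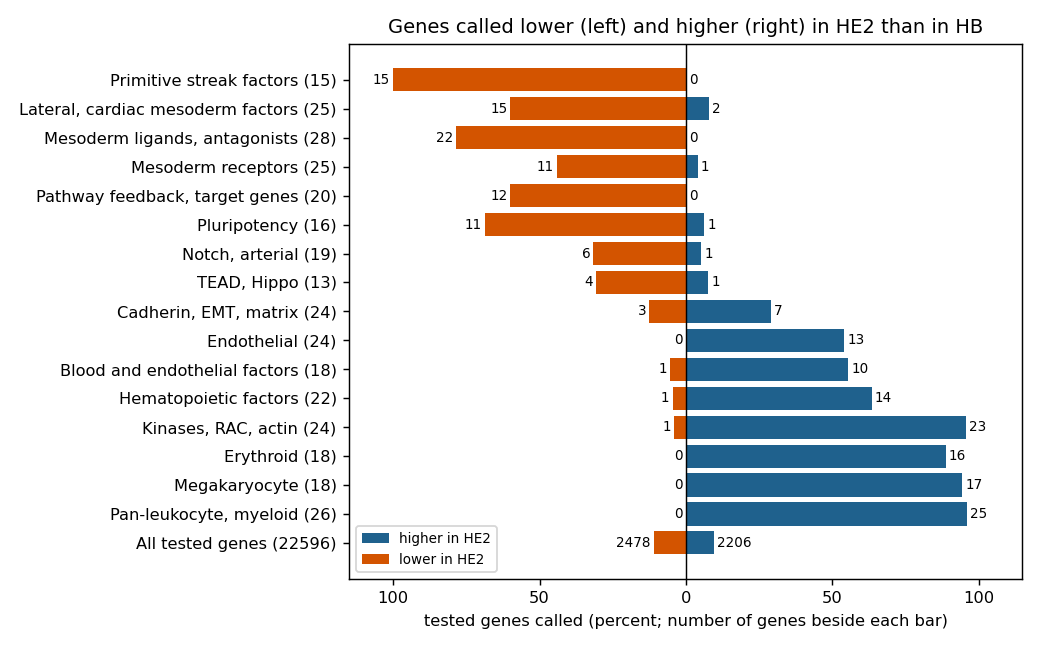
Share of the tested genes of each group that were called lower in HE2 than in HB (left, orange) and higher (right, blue), in percent, with the number of genes beside each bar and the number tested beside each name. All 15 primitive streak factors are lower and 25 of 26 myeloid genes higher, against 11.0% and 9.76% of all tested genes.

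Most pluripotency genes were lower in HE2. Of 16, 11 were lower (68.8%, against 11.0% of all tested genes), 1 higher (6.25%, against 9.76%) and 4 not called. Their median log2 fold change was -3.21. Of the 9 with at least 9 CPM in both HB libraries, 6 were lost (66.7%, against 5.49% of all such genes). Another 2 were retained (22.2%, against 91.4%) and 1 differed between the HE2 libraries. Pou5f1, which encodes OCT4, was at 62.8 and 52.9 CPM in HB and 1.25 and 0.571 CPM in HE2 (log2 fold change -5.98, SE 1.03, edgeR quasi-likelihood adjusted p = 0.00148). Nanog, its partner, was at 15.2 and 9.52 CPM in HB and 0.518 and 0.381 CPM in HE2. Otx2, a factor of the primed epiblast, was at 44.4 and 37.5 CPM in HB and 0.305 and 0.159 CPM in HE2. Both HE2 libraries were at or below 1.25 CPM for each. In ES cells Pou5f1 was at 549 and 520.1 CPM. The DNA methyltransferase gene Dnmt3b was not called and differed between the HE2 libraries (210.4 and 182 CPM in HB, 127 and 322 CPM in HE2), so that its log2 fold change turned from 0.20 to -0.63 without HE2 replicate 2. Klf2, a factor of naive stem cells and of endothelium under flow, was higher, at 20.9 and 12.6 CPM in HB and 76.0 and 32.4 CPM in HE2, and lost its call without HB replicate 2 or HE2 replicate 1 (log2 fold change 1.36 or 0.96 in place of 1.70). Without HB replicate 1 or HE2 replicate 2, 7 pluripotency genes were called lower. Without HE2 replicate 1 the log2 fold change of Pou5f1 was -6.65.

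Of 11 fetal RNA-binding and chromatin genes of the LIN28, HMGA2, IGF2BP and MYC groups, 2 were lower (18.2%, against 11.0% of all tested genes), 0 higher and 9 not called, and 10 of 11 expressed in HB stayed at or above 9 CPM, much as over all genes (91.4%). Igf2bp1, an RNA-binding protein of fetal cells, was at 1176 and 1345 CPM in HB and 998 and 1251 CPM in HE2. Lin28b, which blocks let-7 maturation, was at 112 and 114 CPM in HB and 131 and 207 CPM in HE2. Hmga2, a DNA-bending protein, was at 461 and 484 CPM in HB and 739.5 and 994 CPM in HE2. Of these 3 only Igf2bp1 had overlapping stages, and HE2 was the higher stage for Lin28b and Hmga2. Hmga2 was called higher without HE2 replicate 1 (log2 fold change 1.08 in place of 0.88). Mycl, a MYC family gene, fell from 36.5 and 31.6 to 1.10 and 1.11 CPM (log2 fold change -4.94, SE 0.357, edgeR quasi-likelihood adjusted p = 7.42e-06). Its relative Mycn was at 145 and 139 CPM in HB and 114 and 152 CPM in HE2 and was not called. Igf2bp2 was the other lower gene, at 162 and 199 CPM in HB and 80.0 and 85.2 CPM in HE2, and was not called without HB replicate 2 (log2 fold change -0.98 in place of -1.13). Lower calls numbered 4 without HB replicate 1 and 4 without HE2 replicate 2.

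Cadherins, regulators of the epithelial to mesenchymal transition and matrix genes formed a list with 7 of 24 higher (29.2%, against 9.76% of all tested genes), 3 lower (12.5%, against 11.0%) and a median log2 fold change of 0.45. The mesenchymal cadherin gene Cdh2 was at 272 and 307 CPM in HB and 90.7 and 44.2 CPM in HE2, and Cdh11, another, at 227 and 272 CPM in HB and 8.87 and 4.38 CPM in HE2, whereas Cdh5 went the other way. Epcam, an adhesion molecule of epithelium, was at 23.6 and 17.8 CPM in HB and 1.58 and 1.24 CPM in HE2. Cdh11 and Epcam were below 9 CPM in both HE2 libraries and Cdh2 was not. Itga4, the integrin subunit that binds VCAM1 on stromal cells, was at 3.74 and 3.07 CPM in HB and 82.0 and 146 CPM in HE2 (log2 fold change 5.07, SE 0.495, edgeR quasi-likelihood adjusted p = 4.37e-05). Hapln1, a linker of hyaluronan matrix, was at 93.7 and 94.3 CPM in HB and 758 and 696 CPM in HE2. Both rose in both HE2 libraries. Fn1, the matrix protein fibronectin, was not called, at 8175 and 9697 CPM in HB and 5724 and 3841 CPM in HE2. Col4a1, a basement membrane collagen, was not called either, at 618.3 and 727 CPM in HB and 1994 and 706 CPM in HE2. Without HE2 replicate 1 Fn1 was called lower (log2 fold change -1.21 in place of -0.90), and without HE2 replicate 2 Col4a1 was called higher (1.57 in place of 1.01), whereas without HE2 replicate 1 its log2 fold change was 0.076. The log2 fold change of Cdh2 went from -2.10 to -2.71 and that of Cdh11 from -5.23 to -5.82 without HE2 replicate 1, and 5 genes of the list were then lower.

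Of 13 genes of the Hippo pathway, which answers cell tension, 4 were lower (30.8%, against 11.0% of all tested genes), 1 higher (7.69%, against 9.76%) and 8 not called, at a median log2 fold change of -0.45. The lower genes were Tead2, Tead3, Tead4 and Yap1, and Tead1 was among those not called (log2 fold change -0.64). Yap1, the co-activator of TEAD factors, stood at 306 and 339.6 CPM in HB and 123 and 69.9 CPM in HE2 (log2 fold change -1.74, SE 0.243, edgeR quasi-likelihood adjusted p = 0.000407). Tead2 stood at 205 and 202 CPM in HB and 75.8 and 45.9 CPM in HE2. HE2 replicate 2 was the lowest library for both. Ccn2, a YAP target that encodes a matrix protein, was nevertheless higher, at 26.4 and 19.2 CPM in HB and 127 and 36.1 CPM in HE2, and its call rested on HE2 replicate 1: without that library the log2 fold change was 0.67 and without HE2 replicate 2 it was 2.47, in place of 1.84. The call was also lost without HB replicate 2 (1.60). Amotl2, a YAP-binding protein, was not called (176 and 151 CPM in HB, 283 and 155 CPM in HE2), and its log2 fold change turned from 0.42 to -0.069 without HE2 replicate 1. The higher calls of the list numbered 2 without HB replicate 1 and 3 without HE2 replicate 2.

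Of 18 cell cycle genes, 6 were higher (33.3%, against 9.76% of all tested genes), 2 lower (11.1%, against 11.0%) and 10 not called, at a median log2 fold change of -0.004. Mki67, a gene of dividing cells, was at 649.9 and 686 CPM in HB and 729 and 1031 CPM in HE2. Top2a, another, was at 953 and 996 CPM in HB and 919.6 and 1197 CPM in HE2. The log2 fold change of Top2a was 0.12 and turned to -0.084 without HE2 replicate 2, and that of the replication gene Mcm5 turned from -0.019 to 0.20 without HE2 replicate 1. The calls were in regulators. Ccnd3, the D cyclin of blood cells, was at 111 and 133 CPM in HB and 426 and 510.5 CPM in HE2 (log2 fold change 1.94, SE 0.196, edgeR quasi-likelihood adjusted p = 5.26e-05). Ccnd1 was not called, at 153 and 171 CPM in HB and 166 and 34.5 CPM in HE2, nor was Ccnd2, at 136 and 167 CPM in HB and 131 and 87.8 CPM in HE2. Ccnd1 was called lower without HE2 replicate 1 (log2 fold change -2.23 in place of -0.69), and without HE2 replicate 2 it was at 0.033. The inhibitor gene Cdkn1a was higher, at 46.8 and 44.1 CPM in HB and 199.6 and 99.7 CPM in HE2, as was Cdkn2a, at 1.36 and 2.23 CPM in HB and 12.3 and 7.33 CPM in HE2. The inhibitor gene Cdkn1b was lower, at 81.6 and 89.6 CPM in HB and 47.7 and 35.9 CPM in HE2, as was Cdkn1c, at 34.9 and 37.2 CPM in HB and 17.6 and 10.3 CPM in HE2. The inhibitor genes Cdkn2b, Cdkn2c and Cdkn2d were higher too (log2 fold change 2.80, 1.78 and 1.47). Cdkn2c lost its call without HB replicate 1 or HB replicate 2 (1.73 or 1.79), and Cdkn2d without HB replicate 1 (1.18). Inhibitor genes thus went both ways: Cdkn1a and the named Cdkn2 genes rose, whereas Cdkn1b and Cdkn1c fell. The Cdkn1b call was lost without HB replicate 2 or HE2 replicate 2 (log2 fold change -0.97 or -0.84).

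Antigen presentation and interferon genes were mixed, with 5 of 15 higher (33.3%, against 9.76% of all tested genes) and 5 lower (33.3%, against 11.0%), at a median log2 fold change of 0.25. B2m, the shared light chain of class I molecules, was at 16.7 and 19.8 CPM in HB and 56.2 and 48.5 CPM in HE2. The class I heavy chain gene H2-K1 went down instead, at 52.6 and 49.1 CPM in HB and 20.8 and 17.4 CPM in HE2 (log2 fold change -1.41, SE 0.236, edgeR quasi-likelihood adjusted p = 0.00124). The interferon-stimulated gene Ifit1 was at 0.0661 and 0.141 CPM in HB and 1.71 and 2.16 CPM in HE2 (log2 fold change 4.15, or 4.79 without HB replicate 2). Without HB replicate 1 there were 3 higher and 2 lower calls in the list, and without any other library 3 lower calls. Of 10 AP-1 and immediate early genes, 3 were lower (30%, against 11.0% of all tested genes) and 0 higher, at a median log2 fold change of 0.063. Fos, induced within minutes of a stimulus or of handling, was at 119.6 and 84.1 CPM in HB and 23.6 and 13.5 CPM in HE2. Egr1, induced alike, was at 95.6 and 80.5 CPM in HB and 40.6 and 47.5 CPM in HE2. The part of the different bead and flow sorts in these values was not tested. The Egr1 call sits on the 2-fold limit and was lost without HB replicate 1 (-0.90) or HE2 replicate 1 (-0.89), as was that of Fosb without HB replicate 1 (-1.23) or HE2 replicate 2 (-1.38). The Egr1 call was also lost with limma-voom, with no filter on low counts and with a term for the replicate number, and that of Fosb with total counts. The log2 fold change of Fosb was -1.90, or -2.69 without HE2 replicate 1.

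Hox genes were scarcely transcribed in either stage. Of 39 genes in 4 clusters, 25 could be tested, and none reached 9 CPM in both libraries of HB or of HE2. Of those tested, 4 were higher (16%, against 9.76% of all tested genes) and 5 lower (20%, against 11.0%). Hoxd8, which patterns the trunk, was at 0.86 and 1.49 CPM in HB and 8.93 and 7.87 CPM in HE2 and was the only higher gene called in every set of libraries. Hoxb1, a gene of early posterior mesoderm, was at 2.21 and 3.55 CPM in HB and 0.0609 and 0 CPM in HE2 (HB over HE2 ratio 94.4, interval 25.8 to 785). Both differences lay below the level that was counted as expression. Hoxb4, studied for its effect on blood stem cells, was at 3.54 and 4.20 CPM in HB and 12.4 and 5.52 CPM in HE2 and not called (log2 fold change 1.21, or 0.52 without HE2 replicate 1), but became a higher call without HE2 replicate 2 (1.68), with DESeq2 and with no filter on low counts. Hoxd3 and Hoxd4 share 62.3% and 52.3% of their exon length with each other and Gm28230, and their counts are uncertain. The lower Hox calls numbered 3 with a term for the replicate number and 2 with only the HB and HE2 libraries. The higher calls numbered 1 to 6 and the lower calls 2 to 3 when libraries were left out.

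Markers of cells outside the blood and endothelial lines were checked in the same libraries. Of 10 tested smooth muscle and fibroblast markers, 6 were higher in HE2 (60%, against 9.76% of all tested genes) and none lower (against 11.0%). Their summed level was 99.6 and 94 CPM in HB and 1029 and 672 CPM in HE2. The most abundant was Acta2, the smooth muscle actin gene, at 2.25 and 2.06 CPM in HB and 428 and 278 CPM in HE2 (log2 fold change 7.36, SE 0.444, edgeR quasi-likelihood adjusted p = 2.96e-06). The fibrillar collagen gene Col1a1 was at 46.8 and 45.8 CPM in HB and 294 and 205 CPM in HE2, and the actin-binding gene Tagln at 11.6 and 7.04 CPM in HB and 211 and 121 CPM in HE2. Myh11, the defining myosin of mature smooth muscle, was at 1.25 and 0.444 CPM, Lum had 5 counts in the HE2 libraries together and Dcn too few to be tested. Acta2 in HE1 was at 403 and 569 CPM and in HP at 529 and 249 CPM. The part of such cells in the matrix and Hippo values was not tested. Cardiomyocyte markers summed to 28 and 31.4 CPM in HB and 37.9 and 28.1 CPM in HE2. Of 8 tested, 2 were higher (25%, against 9.76% of all tested genes) and 2 lower (25%, against 11.0%). Whichever of the 4 libraries was left out, the lower calls numbered 1, and the higher calls numbered 1 without HB replicate 1, HB replicate 2 or HE2 replicate 1. The calcium channel gene Ryr2 was the most abundant of them in HE2 and Nppa had no count in any of the 4 libraries. Myl7, the most abundant of these markers in HB at a mean of 13.7 CPM, was lower in HE2 (log2 fold change -5.77), and Tnni1 was higher (3.12). Both were called whichever library was left out. The defining cardiac myosin gene Myh6 was at 0.76 and 0.93 CPM in HB and 0.152 and 0.254 CPM in HE2, with a call that was lost whichever library was left out, beside the retained Gata4, Tbx20 and Hand2. Endoderm markers summed to 37.0 and 21.01 CPM in HB and 36.8 and 12.1 CPM in HE2, including Sox17, which endothelium also expresses. Of 10 tested, 4 were lower (40%, against 11.0% of all tested genes) and 1 higher (10%, against 9.76%). The lower calls numbered 2 without HB replicate 1, and the higher calls 0 without HB replicate 2 or HE2 replicate 1. Apob was at 11.0 and 1.80 CPM in HB, mostly in HB replicate 1, and at 0.183 and 0.222 CPM in HE2 (log2 fold change -4.96, or -3.17 without HB replicate 1 and -5.75 without HB replicate 2). Neurectoderm markers summed to 62.1 and 57.6 CPM in HB and 186 and 123 CPM in HE2, of which the intermediate filament gene Nes, also expressed by endothelium, held 59.5 and 55.9 and 160.5 and 104 CPM, and the neural factors Sox1 and Pax6 were at or below 0.198 CPM. The neuronal tubulin gene Tubb3 was higher, at 1.72 and 1.24 CPM in HB and 25.0 and 18.4 CPM in HE2 (log2 fold change 3.88), and was called in every set of libraries. In that list 2 of 5 were higher (40%, against 9.76% of all tested genes) and 1 lower (20%, against 11.0%). The lower call was lost without HB replicate 1, HB replicate 2 or HE2 replicate 2. Nes lost its call without HE2 replicate 1 (log2 fold change 0.86 in place of 1.20).

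The promoters of the 3 marker genes are given because Itga2b and Meis1 rose and Etv2 fell between the same stages. Each window runs from 250 bases before to 50 bases after the RefSeq transcription start on GRCm38.p6, taken from RefSeq, and all 3 genes had an entry. The Itga2b window is at chr11:102469834-102470133, the Meis1 window at chr11:19018920-19019219 and the Etv2 window at chr7:30635803-30636102, all on the minus strand. The RefSeq start was 239 bases from the 5′ end of the counted gene for Itga2b, 16 for Meis1 and 0 for Etv2. Capitals mark matches on either strand to short motifs, which do not overlap here: AGATAA, which the zinc finger factors of the GATA family bind, GGAAGT of ETS factors, and TGTGGT of RUNX factors. Of 32851 promoter windows of the same length, 11.2% hold the GATA motif, 23.8% the ETS motif and 16.8% the RUNX motif. The Itga2b window has 1 ETS match, the Meis1 window 1 ETS and 1 RUNX match, and the Etv2 window none, which says only that these letters are or are not in the window.
Itga2b: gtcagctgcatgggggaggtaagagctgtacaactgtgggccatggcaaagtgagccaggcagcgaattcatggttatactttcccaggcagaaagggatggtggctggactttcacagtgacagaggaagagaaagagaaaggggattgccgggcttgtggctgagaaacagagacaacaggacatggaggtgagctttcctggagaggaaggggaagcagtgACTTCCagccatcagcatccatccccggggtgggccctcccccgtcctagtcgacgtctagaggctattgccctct
Meis1: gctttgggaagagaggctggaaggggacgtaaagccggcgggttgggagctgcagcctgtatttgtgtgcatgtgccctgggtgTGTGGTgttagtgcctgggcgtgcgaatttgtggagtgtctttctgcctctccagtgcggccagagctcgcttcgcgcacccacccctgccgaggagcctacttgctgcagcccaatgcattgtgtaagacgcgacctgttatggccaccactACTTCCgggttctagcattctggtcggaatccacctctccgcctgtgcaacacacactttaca
Etv2: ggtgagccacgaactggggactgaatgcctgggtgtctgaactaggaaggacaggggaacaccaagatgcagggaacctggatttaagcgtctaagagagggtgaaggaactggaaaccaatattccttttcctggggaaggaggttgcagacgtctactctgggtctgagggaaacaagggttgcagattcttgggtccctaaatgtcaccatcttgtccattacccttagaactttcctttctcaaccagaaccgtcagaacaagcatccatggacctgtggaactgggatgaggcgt

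The 5 most abundant protein-coding genes per kilobase of exon, those with clone names left out, were listed for each stage. In HB they were the translation factor gene Eef1a1 (2747 CPM per kilobase), Ccnb1ip1 (1560), the histone gene Hist2h2bb (1488), the chaperone gene Hsp90ab1 (1476) and the translation factor gene Eef2 (1399). In HE2 they were Eef1a1 (2681), the actin gene Actb (1992), Hbb-bh1, Ccnb1ip1 (1474) and Hist2h2bb (1374). Ccnb1ip1 overlaps Rpph1, the RNA of ribonuclease P, on the same strand, and its level is uncertain for that reason. A globin thus stood among these 5 genes in HE2 and none did in HB. Actb was not called, at 2717 and 3274 CPM in HB and 5261 and 5412 CPM in HE2 (log2 fold change 0.83).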

How the data were processed

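Values are the deposited counts (column 7 of the authors' tables), made per the file headers with featureCounts 2.0.1 (-p -O -T 6 -s 2) on Ensembl GRCm38 release 102 genes, so counting was stranded and reads in overlapping genes were counted for each. The labels name Trimmomatic, HISAT2 2.2.1 and RiboDetector before it. No raw read was used. Counts of 55487 genes in 10 libraries were read in R 4.3.3, filtered with edgeR 4.0.16 to 22596 genes, scaled by TMM and fitted with stage means over all 5 stages by edgeR's quasi-likelihood method. HE2 was tested against HB with Benjamini-Hochberg adjustment over the tested genes, and genes were called at adjusted p under 0.05 and at least 2-fold. Alternatives used limma 3.58.1 and DESeq2 1.42.0. Tables and figures used Python 3.11.15, numpy 2.4.6, scipy 1.17.1, pandas 2.3.3 and matplotlib 3.10.9. A gene with no count in a stage was set to 3 counts per library there. Retained means at least 9 CPM in both HE2 libraries, of genes with at least 9 CPM in both HB libraries. Genes followed through every alternative were the marker and sort genes, up to 4 called genes each way and 3 uncalled genes of each list, 10 genes with the largest change each way, all retained mesoderm genes and the 5 most abundant genes per kilobase of each stage. Genes with clone names, such as Gm and Rik genes, were left out of the rankings by change and by level per kilobase. Other genes named in the text were picked from the lists after their values were seen. Gene lists and their members were chosen with earlier results of these data known. Symbols were found for 55141 Ensembl identifiers. Some genes that were counted in the lists are not reported here.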

Additional observations from a re-analysis of the deposited data

How the results depend on the processing

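Each alternative changed 1 choice and kept the rest. With another test (limma-voom, DESeq2), scaling by total counts, scaling without the 20 genes with the most counts, no filter or only the HB and HE2 libraries, 2015 to 2505 genes were higher and 2429 to 2831 lower in HE2 than in HB. When 1 HB or HE2 library was left out, where the lone library is assumed to vary like the other stages, 1623 to 2127 genes were higher and 1643 to 2332 lower. At 4-fold they were 1210 and 1588, by the stricter threshold itself. No called gene was called in the opposite direction under any alternative. Mesoderm genes retained in HE2 numbered 42 to 48 with a library left out, 48 at 5 CPM, 26 at 20 CPM, 47 by stage means, 41 with total counts and 44 without the most counted genes.

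With the replicate block, a term for the replicate number, 2049 genes were higher and 2263 lower. HB and HE2 libraries of the same number deviated from their stage means with a correlation of 0.213 over 2 pairs, and the labels give the number no meaning.

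Of 238 genes followed, 155 were called, 32 of these lost the call and 26 others gained one in at least 1 of 11 alternatives. No called gene changed sign, and 30 uncalled genes did, of which the cause was not tested. Over the fits that left out 1 HB or HE2 library, their log2 fold changes ranged over Foxc1 -0.517 to 0.856, Apln -0.301 to 0.786, Bmpr2 -0.210 to 0.266, Smad6 -0.093 to 0.798, Ldb1 -0.019 to 0.195, Lmo2 -0.134 to 0.201, Egfl7 -0.163 to 1.058, Flt4 -0.075 to 1.318, Notch1 -0.242 to 0.781, Nrp2 -0.673 to 0.269, Bcl11a -0.221 to 0.505, Csf2ra -0.219 to 0.302, Dnmt3b -0.627 to 0.724, Amotl2 -0.069 to 0.793, Psmb10 -0.026 to 0.494, Tap1 -0.106 to 0.485, Top2a -0.084 to 0.302, Mcm5 -0.268 to 0.199, Ier2 -0.090 to 0.086, Sox17 -0.681 to 1.199, Amn -1.601 to 0.552, Sox1 -0.876 to 1.321, Pax6 -5.166 to 0.398, Aplnr -1.920 to 0.208, Acvr1 -0.731 to 0.136, Acvrl1 -0.408 to 1.807, Eef1a1 -0.246 to 0.159, Ccnb1ip1 -0.285 to 0.10, Hsp90ab1 -0.323 to 0.000 and Hist2h2bb -0.392 to 0.123. With total counts they were Bmpr2 -0.010, Lmo2 -0.005, Csf2ra -0.021 and Ier2 -0.045, and without the most counted genes Ier2 -0.006. Depth limits genes under 0.0845 to 0.0992 CPM, depending on the library, where a library holds fewer than 3 counts.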

Other observations

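Small nucleolar RNA genes, many of which guide the modification of ribosomal RNA, were looked at after their values were seen. Of 350 tested genes of this class, 1 was called higher (0.286%) and 125 lower (35.7%), against 9.76% and 11.0% of all tested genes, at a median log2 fold change of -1.04. Snora73a stood at 299.8 and 166 CPM in the HB libraries and 83.6 and 55.6 CPM in the HE2 libraries, so both HE2 libraries were below both HB libraries, and the HB libraries differed from each other. The cause was not tested.

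Of imprinted noncoding RNAs 4 genes are given, of which 3 are neighbors. Meg3, from the Dlk1-Dio3 region, was at 281 and 199.5 CPM in HB and 94.3 and 34.7 CPM in HE2 (log2 fold change -1.90), and its neighbors Rian and Mirg had log2 fold changes of -1.83 and -1.97. H19, which lies next to Igf2, was at 375 and 471 CPM in HB and 1464 and 1077 CPM in HE2 (log2 fold change 1.59). For each of Meg3 and H19 the libraries of the stages did not overlap. These genes too were picked after their values were seen. The HE2 libraries of Meg3 differed from each other, and its log2 fold change without either library is not given.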
